A study of Mus musculus with 4 samples.

Results

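Heparan sulfate and chondroitin sulfate are long sugar chains that are built in the Golgi on a small set of core proteins and then sulfated at chosen positions. The sulfation pattern decides which growth factors, morphogens and guidance molecules a chain binds, so the enzymes that set it act as regulators of signalling at the cell surface. In the brain, heparan sulfate on syndecans and glypicans takes part in axon guidance and synapse formation, and chondroitin sulfate is the main sugar of the extracellular matrix and of perineuronal nets. The genes described here were taken by symbol from the deposited table of the series and cover chain initiation, polymerisation and sulfation, the extracellular sulfatases, the syndecans and the glypicans, together with relatives in the carbohydrate sulfotransferase (Chst) family that act on other glycans. Of the 15713 genes in the table, 49 matched, and all 49 passed the filter on low counts and were tested.

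The study compared the hippocampus of mice labelled with a developmental exposure to ATO at 5000 ppb (2 libraries) with that of untreated control mice (2 libraries). The labels do not spell out ATO, and the title of the series names arsenic exposure of offspring. All libraries came from C57BL/6 mice, an inbred strain, at 11 to 12 weeks of age. Messenger RNA was sequenced, and the labels do not say how many animals, litters or pools of tissue stand behind a library, and the spread behind each p-value may therefore be technical.

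The counts summed to between 14832214 and 17251032 per library. Markers of CA1, CA3 and dentate granule neurons were counted in every library, with 0 of them at 0. The libraries differed in markers of tissue next to the hippocampus. All 20 markers of the choroid plexus, the epithelium that makes cerebrospinal fluid, rose in ATO, and their summed level was 3360.35 and 4212.86 CPM in ATO replicates 1 and 2, against 149.36 and 221.17 CPM in control replicates 1 and 2. CPM are counts scaled to library size with edgeR's TMM factors, and these sums are set beside the results they move with.

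In all, 3 of the 49 genes (6.12%) passed an adjusted p under 0.05 in edgeR's quasi-likelihood test, against 3.73% of all genes tested. The extracellular sulfatase gene Sulf1 rose 6.25-fold, the syndecan gene Sdc4 rose 1.28-fold, and the heparan sulfate N-sulfotransferase gene Ndst3 fell to 0.629 of its control level. The 2 rises compare with 2.87% of all genes that rose, and the 1 fall with 0.859% that fell. An unadjusted p under 0.05 was reached by 9 of the 49 genes (18.4%), close to the 18.1% of all genes. The groups did not overlap for 22 of the 49 (44.9%), near the 48.1% of all genes, with ATO above control for 14 and below it for 8. The median log2 fold change was 0.03 over the 49 genes and -0.005 over all genes, and 38 of the 49 (77.6%) differed by less than 1.2-fold, against 73.7% of all genes. The share that passed rests on only 3 genes, which belong to separate steps of the pathway. The shares by unadjusted p, by overlap and by size of change lay close to those of all genes.

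**Figure D1:**
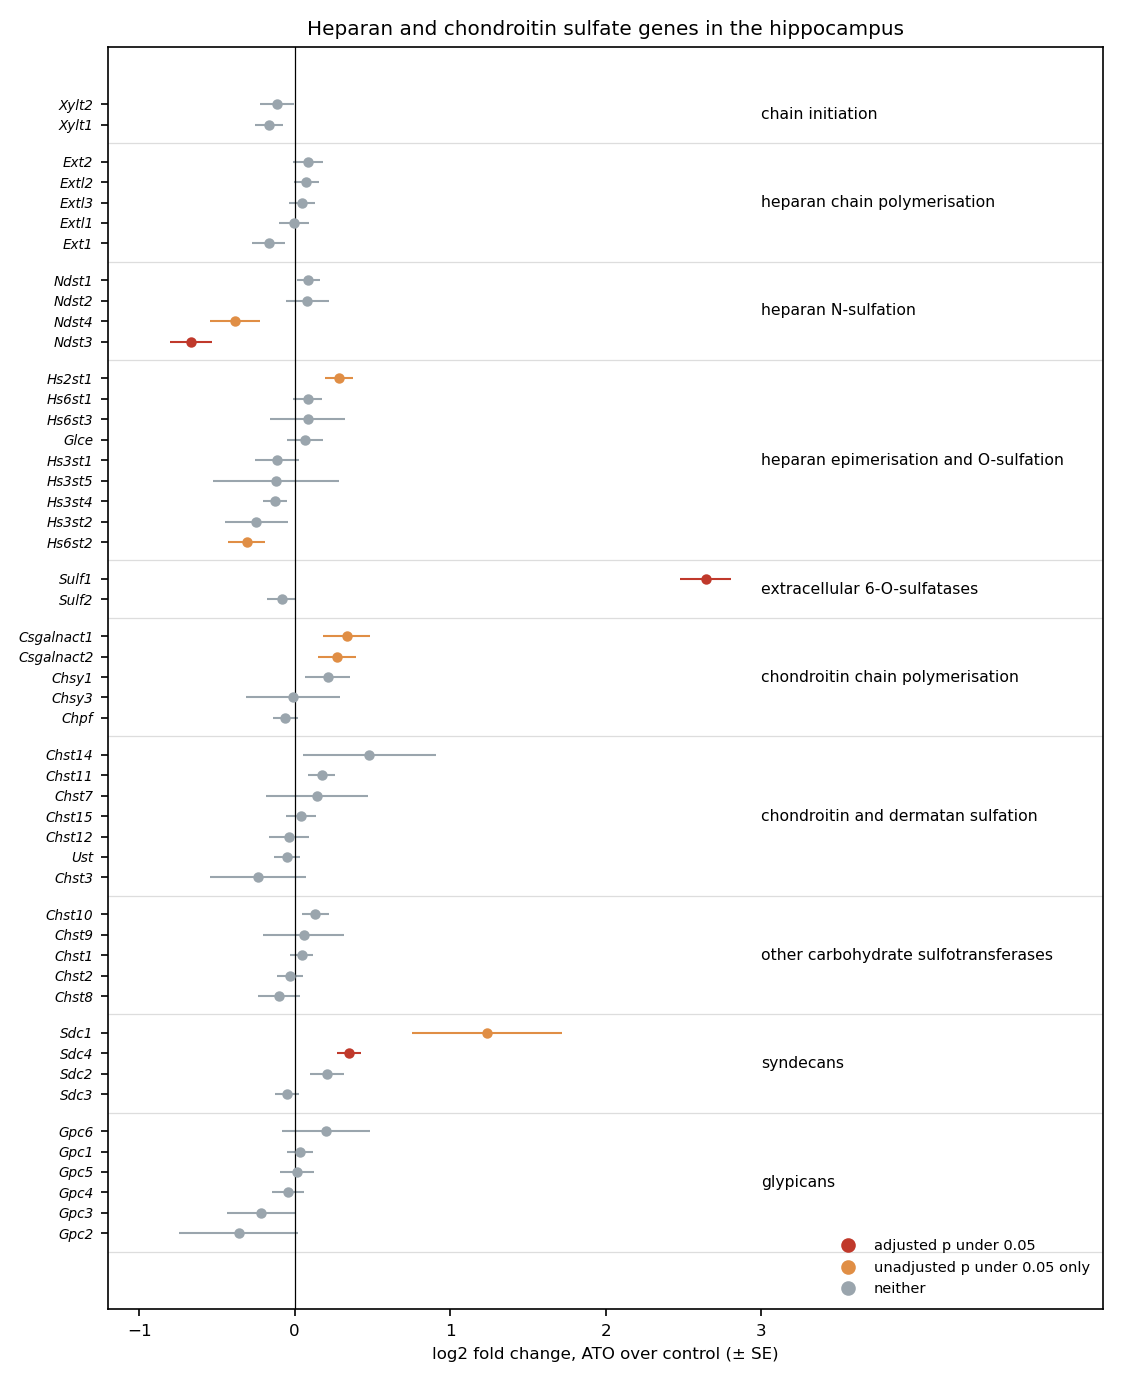
Log2 fold change of ATO over control (x axis, ± SE, n = 2 libraries per group) for the 49 genes, grouped by role. Sulf1 lies at 2.64, far to the right of the other genes, Sdc4 at 0.35 and Ndst3 at -0.67, and 38 of the 49 genes differ by less than 1.2-fold.

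Sulf1 and Sulf2 encode secreted sulfatases that remove 6-O-sulfate groups from finished heparan sulfate chains outside the cell. This trimming is known to release or weaken the binding of several growth factors and to aid Wnt signalling. Sulf1 (ENSMUSG00000016918, chromosome 1 from 12692277 to 12861192, plus strand, GRCm38) had 421 and 420 counts in the ATO libraries, against 51 and 67 in the controls. That is 24.2 and 25.3 CPM in ATO and 3.46 and 4.44 CPM in control. Both ATO libraries were far above both controls, and the replicates of each group lay close together. The means were 24.7 ± 0.789 CPM in ATO and 3.95 ± 0.691 CPM in control (SD, n = 2 each), and the log2 fold change was 2.64 ± 0.17 (SE; adjusted p = 1.48e-07, edgeR). Leaving out single libraries moved it between 2.48 and 2.83, and it passed each time. In the authors' deposited table Sulf1 was the 1 gene of the 49 marked as differentially expressed (log2 fold change 2.62, adjusted p = 5.9e-07). The authors' log2 threshold was 1, and 3 of the 49 genes had an adjusted p under 0.05 there.

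Sulf2, the more abundant sulfatase, had 100.4 and 109 CPM in ATO, against 100.3 and 122 CPM in control. The groups overlapped, and the log2 fold change was -0.08 ± 0.09 (adjusted p = 0.700 in edgeR). An exon of Sulf2 overlaps the neighbouring gene Ncoa3 on the other strand, and the sources used here do not state the strand setting of the counting. On the FPKM scale, which divides by gene length and so allows genes to be set side by side, Sulf1 made up 11.1% and 10.7% of the sulfatase transcripts in ATO and 1.74% and 1.85% in control. Sulf2 thus held most of the sulfatase message in every library, and the FPKM of both genes together was 19.4 and 20.7 in ATO and 17.2 and 21.1 in control. The totals of the groups overlapped.

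The rise of Sulf1 went along with the rise of the choroid plexus markers, whose sum was 20.4-fold higher in ATO, and with that of the ependymal and ciliated cell markers. The ependymal markers, of which 7 of 10 rose, summed to 56.6 and 40.2 CPM in ATO and 19.4 and 24.04 CPM in control. Markers of the leptomeninges and fibroblasts summed to 714.37 and 390.88 CPM in ATO and 468.99 and 319.31 CPM in control, so those sums overlapped. Ptgds alone gave 556 and 278 CPM of the sums in ATO and 334 and 213 CPM in control. Of these 14 markers 1 rose and 1 fell, and 13 had a positive log2 fold change (median 0.66). None of the markers on these 3 lists was at 0 in any library, but some were near the floor in control. The lowest counts were 1 on the choroid plexus list, 3 on the ependymal list and 9 on the leptomeninges list. On the log2 scale relative to the control mean, Sulf1 stood at 2.61 and 2.68 in the ATO libraries and the choroid plexus sum at 4.18 and 4.51. Ttr alone gave 2286 and 2873 CPM of the choroid plexus sum in ATO and 20.4 and 61.8 CPM in control. The log2 fold changes of single choroid plexus markers ran from 1.30 for Msx1 to 6.53 for Slc4a5. The 2.64 of Sulf1 lay within that range. The part of other tissue in the rise of Sulf1 was not tested. In such bulk samples a change in the number of cells of a type and a change in the RNA of each cell cannot be told apart.

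**Figure D2:**
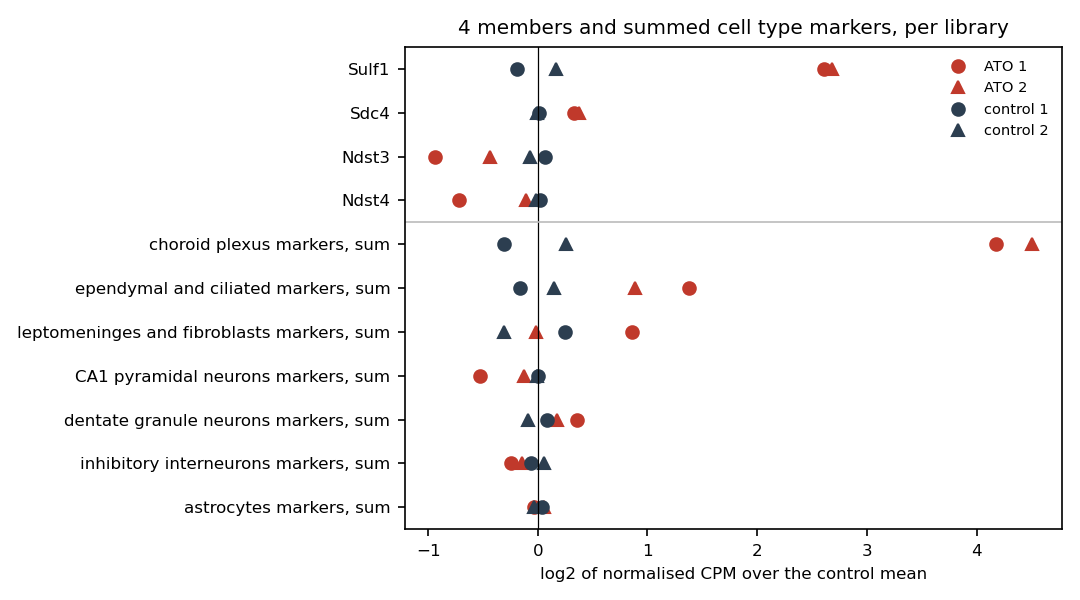
Log2 of normalised CPM over the control mean (x axis) in each library for Sulf1, Sdc4, Ndst3 and Ndst4 and for the summed markers of 7 cell types. Sulf1 and the choroid plexus sum are the furthest to the right in both ATO libraries, and Ndst3, Ndst4 and the CA1 sum are lower in ATO replicate 1 than in ATO replicate 2.

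Enzymes of the Ndst family remove the acetyl group of N-acetylglucosamine in the heparan chain and put a sulfate in its place, which is the first modification and the one that later enzymes build on. Ndst1 and Ndst2 are widely expressed, whereas Ndst3 and Ndst4 are known mainly from the brain. Ndst3 (ENSMUSG00000027977, chromosome 3 from 123526166 to 123690853, minus strand, GRCm38) had 380 and 513 counts in ATO, against 647 and 600 in control. Its level was 21.8 and 30.9 CPM in ATO and 43.9 and 39.7 CPM in control. Both ATO libraries were below both controls, and ATO replicate 1 was the lowest. The means were 26.3 ± 6.41 CPM in ATO and 41.8 ± 2.94 CPM in control (SD, n = 2 each), and the log2 fold change was -0.67 ± 0.14 (SE; adjusted p = 0.0147, edgeR). The call did not hold without ATO replicate 1 (log2 -0.44, adjusted p = 0.0778), without control replicate 1 (-0.59, 0.0832) or without control replicate 2 (-0.74, 0.0611). In the authors' deposited table its adjusted p was 0.0172.

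The sequence before one of the RefSeq starts of Ndst3 is shown because it is the gene of the 49 that fell. In GENCODE the gene starts at 123690853 on the minus strand. The RefSeq starts used here, at 123619450 and 123672477, therefore lie within the GENCODE gene. The 250 bases at chr3:123619451-123619700 (minus strand, GRCm38.p6, from RefSeq) hold 3 CG pairs, and capitals mark matches to CCAAT, read here on the other strand right before the start, and to AGAACA, part of the glucocorticoid receptor motif.
Ndst3: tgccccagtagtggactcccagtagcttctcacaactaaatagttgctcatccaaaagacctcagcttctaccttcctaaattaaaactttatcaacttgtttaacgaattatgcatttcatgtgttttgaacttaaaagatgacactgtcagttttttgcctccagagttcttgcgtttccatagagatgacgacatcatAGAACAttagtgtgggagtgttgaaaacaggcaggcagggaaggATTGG
The window before the other RefSeq start (chr3:123672478-123672727) holds 1 CG pair and a CCAAT that ends 229 bases before the start, and no AGAACA.

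Ndst4, which lies on the same chromosome, had 15.7 and 24.0 CPM in ATO, against 26.2 and 25.6 CPM in control. Both ATO values were below the controls, but ATO replicate 2 came close to them, and the gene did not pass (log2 -0.38 ± 0.16, adjusted p = 0.216 in edgeR). Without ATO replicate 2 it reached -0.72 (adjusted p = 0.00260), and without ATO replicate 1 it was -0.11 (adjusted p = 0.920). Ndst1, the most abundant of the family at 13.8 FPKM, had 117 and 119.7 CPM in ATO and 111 and 112 CPM in control (log2 0.09 ± 0.07, adjusted p = 0.591). Ndst2 was at log2 0.08 ± 0.14. As a share of the family's FPKM, Ndst3 took 10.5% and 13.5% in ATO and 19.2% and 17.4% in control, and Ndst4 took 6.36% and 8.83% in ATO and 9.65% and 9.43% in control. The share of Ndst1 was 67.03% and 62.4% in ATO and 57.9% and 58.2% in control. The brain-enriched members thus made up a smaller part of the N-sulfotransferase message in both ATO libraries, with ATO replicate 1 furthest from the controls. With 2 libraries per group a two-sided exact permutation test of such a share cannot go below p = 0.333, so the shares are given as values.

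The same library was the lower one for markers of CA1 pyramidal neurons. These summed to 631.13 and 836.31 CPM in ATO replicates 1 and 2, against 915.12 and 907.54 CPM in control, with 4 of 10 markers lower past the threshold and 0 higher. Markers of inhibitory interneurons summed to 1045.43 and 1122.02 CPM in ATO and 1186.17 and 1292.67 CPM in control, with 1 of 10 lower and 0 higher. Markers of dentate granule neurons ran the other way, at 1039.06 and 915.05 CPM in ATO and 858.82 and 758.08 CPM in control, with 3 of 12 higher. Markers of CA3 pyramidal neurons summed to 609.14 and 591.41 CPM in ATO and 583.55 and 558.69 CPM in control, and 0 of 9 passed. None of these markers was at 0 in any library. The part of the makeup of neurons in the levels of Ndst3 and Ndst4 was not tested.

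Syndecans are membrane-spanning core proteins that carry heparan sulfate, and some of them chondroitin sulfate, and serve as co-receptors for growth factors and matrix proteins. Sdc4 (ENSMUSG00000017009, chromosome 2 from 164424247 to 164443887, minus strand, GRCm38), a syndecan of focal adhesions, had 1627 and 1598 counts in ATO and 1104 and 1114 in control. Its level was 93.4 and 96.2 CPM in ATO and 74.9 and 73.8 CPM in control. The groups were well apart and the replicates of each nearly equal, with means of 94.8 ± 1.98 CPM in ATO and 74.3 ± 0.790 CPM in control (SD, n = 2 each). The log2 fold change was 0.35 ± 0.08 (SE; adjusted p = 0.0233, edgeR). In the authors' deposited table its adjusted p was 0.0259. It was between 0.33 and 0.37 with each library left out, while the adjusted p was 0.0683 without ATO replicate 1, 0.106 without ATO replicate 2 and 0.0944 without control replicate 2. Of 10 astrocyte markers 1 rose and 0 fell, and they summed to 4421.85 and 4697.42 CPM in ATO and 4637.71 and 4407.71 CPM in control. Slc1a2 alone gave 2164 and 2283 CPM of the sums in ATO and 2344 and 2052 CPM in control. Both ATO libraries were above both controls for 4 of the 10 and below them for 3, and groups did not overlap for 48.1% of all genes. The rise of Sdc4 also went along with those of the choroid plexus markers (20 of 20 rose, sums given above), the ependymal markers (7 of 10 rose) and the dentate granule neuron markers (3 of 12 rose). The part of these cell types in the level of Sdc4 was not tested.

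The sequence before the RefSeq start of Sdc4 is shown for comparison with that of Ndst3. This start, at 164443188, also lies within the GENCODE gene, which starts at 164443887 on the minus strand. The 250 bases at chr2:164443189-164443438 (minus strand, GRCm38.p6, from RefSeq) hold 19 CG pairs, and capitals mark 4 GC boxes (GGGCGG) and 1 match to the NF-kB consensus directly before a GC box.
Sdc4: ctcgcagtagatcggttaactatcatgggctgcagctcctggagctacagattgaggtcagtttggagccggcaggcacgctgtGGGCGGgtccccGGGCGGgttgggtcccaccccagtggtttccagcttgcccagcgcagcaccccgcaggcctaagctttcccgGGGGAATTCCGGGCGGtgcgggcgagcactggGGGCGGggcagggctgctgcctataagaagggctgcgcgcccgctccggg

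RefSeq windows were found for 37 of the 49 genes, 43 windows in all. Searched on both strands over the 250 bases before the start, GGGCGG was in 69.8% of these windows, against 55.4% of the 14842 windows of all genes in the table. CCAAT was in 37.2% against 34.8%, TATAAA in 6.98% against 6.62%, CACGTG in 9.30% against 7.94%, AGAACA in 4.65% against 10.9%, and the NF-kB consensus in 4.65% against 4.67%. The median window held 18 CG pairs, against 15 for the genes of the table. These matches describe letters in a window and not sites in use.

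Sdc1, the syndecan typical of epithelia, was the least abundant, with 36 and 21 counts in ATO and 15 and 6 in control (2.07 and 1.26 CPM in ATO, 1.02 and 0.397 CPM in control). The ATO libraries were above both controls, but the replicates of each group differed by a wide margin, and the gene did not pass (log2 1.24 ± 0.48, adjusted p = 0.189 in edgeR). Its log2 fold change was 2.05 without control replicate 1 and 0.71 without control replicate 2. Sdc2, which is found at dendritic spines, had 44.8 and 37.6 CPM in ATO and 37.9 and 33.5 CPM in control, with overlapping groups. Sdc3, the syndecan of axons, had 167 and 185 CPM in ATO and 183 and 181 CPM in control (log2 -0.05 ± 0.08). On the FPKM scale Sdc4 took 47.1% and 47.4% of the syndecan transcripts in ATO and 41.4% and 42.1% in control, and Sdc3 took 35.8% and 38.8% in ATO and 43.1% and 43.9% in control. Sdc4 thus had the highest FPKM of the 4 syndecans in both ATO libraries, and Sdc3 narrowly the highest in both controls.

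Glypicans are tied to the membrane by a lipid anchor and carry heparan sulfate close to the cell surface, where they bind Wnt, hedgehog and other ligands. Of the 6 glypicans 0 passed, and their log2 fold changes ran between -0.36 and 0.20 with a median of -0.01. Gpc1, the most abundant at 23.0 FPKM, had 114 and 126 CPM in ATO and 112 and 123 CPM in control. Gpc4, which astrocytes secrete to promote excitatory synapses, had 37.3 and 33.1 CPM in ATO and 37.9 and 34.8 CPM in control. For both the groups overlapped. Gpc5 was at log2 0.02 ± 0.11. Gpc2 and Gpc6 were each under 1 FPKM, and their SEs of 0.38 and 0.28 leave room for sizeable differences.

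**Figure D3:**
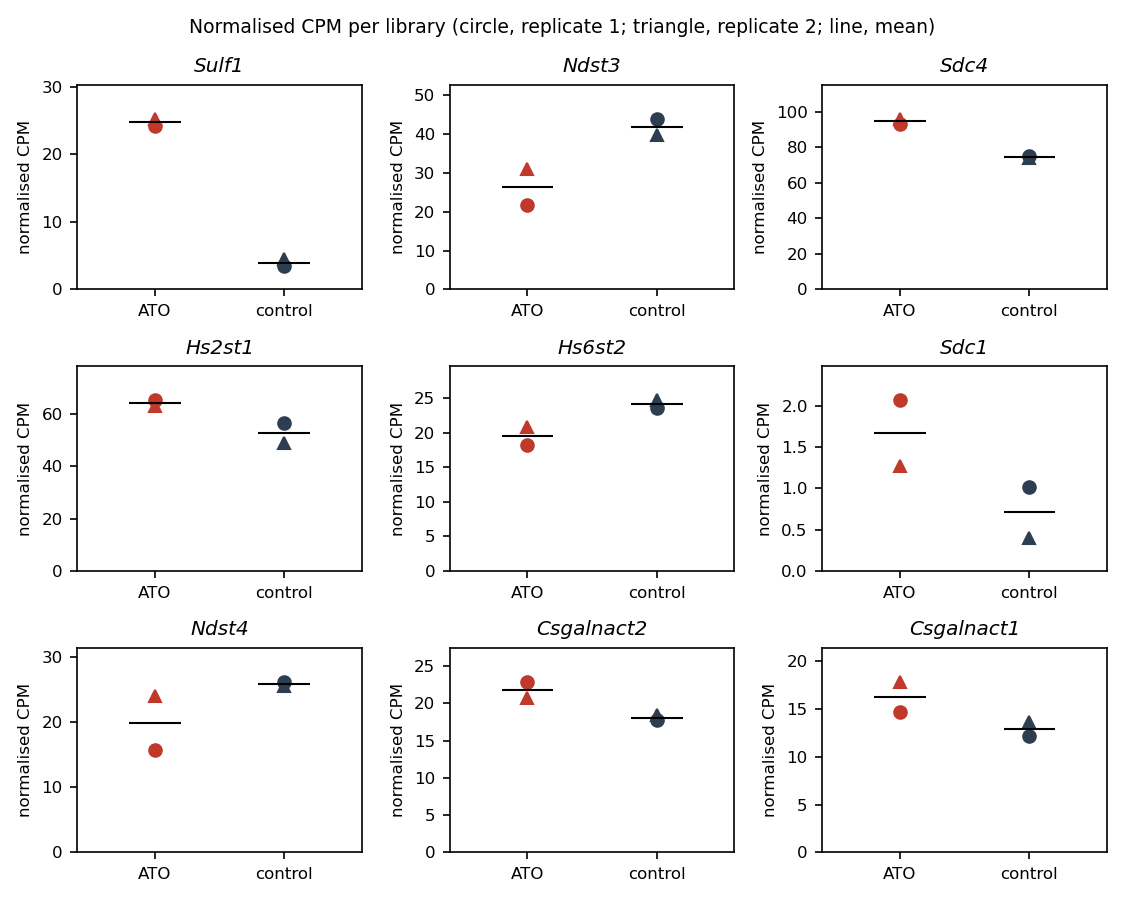
Normalised CPM (y axis, from 0) in each library for the 9 genes with an unadjusted p under 0.05, ATO left and control right, with the mean of 2 libraries as a line. The replicates of Sulf1 and Sdc4 lie close together, while ATO replicate 1 lies well below ATO replicate 2 for Ndst3 and Ndst4.

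The chains start with a xylose that Xylt1 or Xylt2 places on the core protein. Neither gene passed, at log2 -0.16 ± 0.09 for Xylt1 and -0.11 ± 0.11 for Xylt2. Both ATO libraries were below both controls for each, and groups did not overlap for 48.1% of all genes. Xylt2 had 22.7 and 21.4 CPM in ATO and 24.01 and 23.8 CPM in control. The heparan chain is then begun and lengthened by the exostosin family. Its 5 genes all differed by less than 1.2-fold, with log2 fold changes between -0.17 for Ext1 and 0.09 for Ext2, which together form the polymerase. Extl2, the most abundant at 24.5 FPKM, had 88.6 and 85.4 CPM in ATO and 84.4 and 80.7 CPM in control (adjusted p = 0.670 in edgeR).

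Of the 9 genes for later steps on the heparan chain, the epimerase gene Glce and the O-sulfotransferase genes, 0 passed. Hs2st1, which sulfates the uronic acid, had 65.2 and 62.9 CPM in ATO, against 56.4 and 48.8 CPM in control. Both ATO libraries were higher, by log2 0.28 ± 0.09, with an unadjusted p of 0.00750 and an adjusted p of 0.108 in edgeR. Hs6st2, which adds the 6-O-sulfate that the Sulf enzymes remove, had 18.3 and 20.8 CPM in ATO, against 23.5 and 24.7 CPM in control. Both ATO libraries were lower, and the gene did not pass (log2 -0.31 ± 0.12, adjusted p = 0.187). Its relatives Hs6st1 and Hs6st3 were each at 0.08. Hs3st4, a 3-O-sulfotransferase of neurons, held 84.3% and 82.4% of the Hs3st family's FPKM in ATO and 83.01% and 83.3% in control. It had 139 and 134 CPM in ATO and 155 and 144 CPM in control, and did not pass (log2 -0.13 ± 0.08, adjusted p = 0.407).

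**Figure D4:**
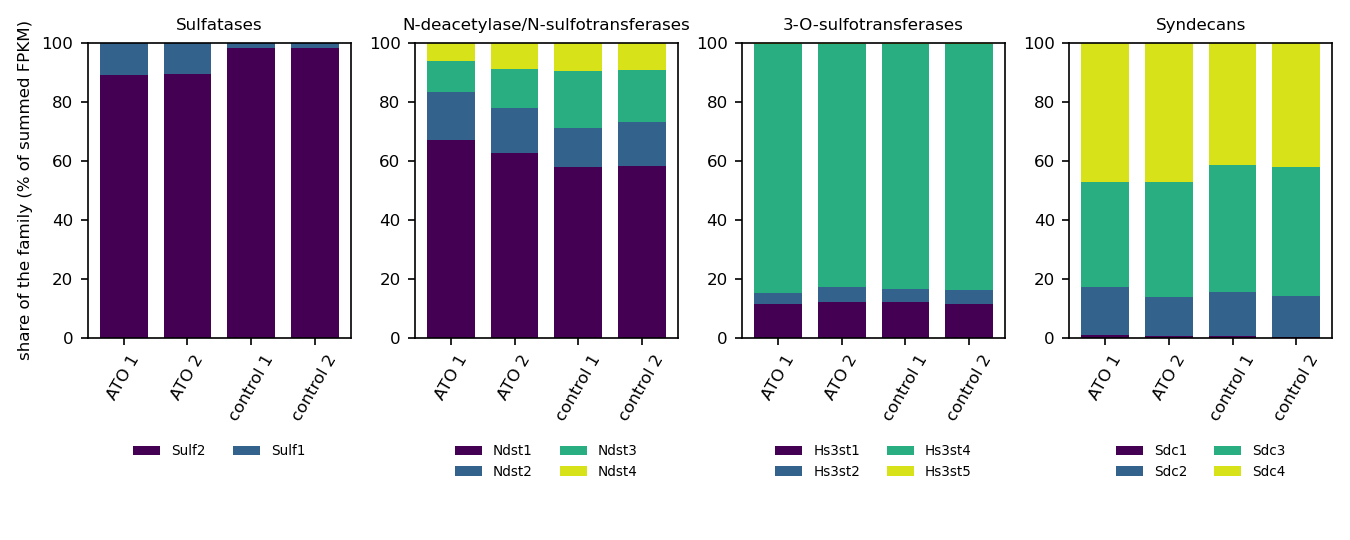
Share of each gene in the summed FPKM of its family (y axis, percent) in each library, for the sulfatases, the Ndst family, the Hs3st family and the syndecans. Sulf1 takes 11.1% and 10.7% in the ATO libraries and 1.74% and 1.85% in the controls, while Hs3st4 takes between 82.4% and 84.3% of its family in all 4 libraries.

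Chondroitin chains are started by Csgalnact1 and Csgalnact2 and lengthened by the Chsy enzymes with their partner Chpf. Of these 5 genes 0 passed. Csgalnact1 had 14.6 and 17.8 CPM in ATO and 12.1 and 13.6 CPM in control, and Csgalnact2 had 22.9 and 20.8 CPM in ATO and 17.7 and 18.4 CPM in control. For both, the ATO libraries were above the controls, with log2 fold changes of 0.33 ± 0.15 and 0.27 ± 0.12 and adjusted p-values of 0.256 and 0.249 in edgeR. Chsy1 was at 0.21 ± 0.15. Chpf, the most abundant of them at 19.8 FPKM, had 72.0 and 77.6 CPM in ATO and 76.6 and 79.3 CPM in control, with overlapping groups.

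The 7 chondroitin and dermatan sulfotransferase genes also gave 0 calls. Chst11, the main 4-O-sulfotransferase of chondroitin, had 105 and 93.1 CPM in ATO and 91.9 and 83.8 CPM in control (log2 0.18 ± 0.09, adjusted p = 0.307 in edgeR). Chst12, and Chst15 and Ust, which make other sulfation patterns, lay between -0.05 and 0.04. Chst3, the 6-O-sulfotransferase of chondroitin, had 67 and 35 counts in ATO and 50 and 55 in control, and Chst14, the dermatan 4-O-sulfotransferase, had 35 and 24 counts in ATO and 11 and 26 in control. At such counts the SEs were 0.31 for Chst3 and 0.43 for Chst14, so moderate changes were not detectable. Among the relatives acting on other glycans, Chst1, which sulfates galactose in keratan sulfate, was the most abundant of the 49 genes at 121 FPKM. It had 323 and 340 CPM in ATO and 315 and 326 CPM in control (log2 0.05 ± 0.07, adjusted p = 0.795). Chst2, Chst8, Chst9 and the HNK-1 sulfotransferase gene Chst10 lay between -0.10 and 0.13, and 0 of the 5 passed.

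Other genes of the pathway were taken from 6 lists of partners, of which 75 genes were tested, and 2 rose and 3 fell (6.67%, against 3.73% of all genes). All 5 were core proteins that carry or bind these chains, out of 24 such genes (20.8%). Col18a1, a heparan sulfate proteoglycan of basement membranes, had 11.8 and 8.97 CPM in ATO and 4.61 and 4.83 CPM in control, a rise of log2 1.13 ± 0.21 (adjusted p = 0.00645 in edgeR). Prelp, a leucine-rich matrix protein that binds heparan sulfate, had 46.4 and 41.4 CPM in ATO and 28.4 and 21.8 CPM in control, a rise of 0.81 ± 0.12. These rises came with the higher choroid plexus sum given above. On the leptomeninges and fibroblasts list, 13 of 14 markers had a positive log2 fold change. The part of either tissue in these rises was not tested.

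Agrn, the heparan sulfate proteoglycan agrin of basement membranes and synapses, had 198 and 203 CPM in ATO, against 249.6 and 270.1 CPM in control. Both ATO libraries were lower, and the gene fell by 0.38 on the log2 scale with an SE of 0.075 (adjusted p = 0.0132 in edgeR). Cspg4, the NG2 proteoglycan of oligodendrocyte precursors, had 17.05 and 14.1 CPM in ATO and 23.3 and 21.1 CPM in control and fell just past the threshold (log2 -0.51 ± 0.13, adjusted p = 0.0496). Dcn, the dermatan sulfate proteoglycan decorin, had 44.3 and 39.6 CPM in ATO and 57.7 and 65.9 CPM in control, a fall of log2 -0.56 ± 0.10 (adjusted p = 0.00488). Dcn is also on the CA1 and leptomeninges marker lists and Cspg4 on that of oligodendrocyte precursors. The proteoglycans with the highest FPKM, Spock2 and Bcan, did not pass, at -0.03 and -0.14, and neither did Spock1 at -0.03.

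Of 5 genes that build the linkage region, 17 that supply the sulfate donor and the sugar nucleotides, 21 that degrade or trim the chains, 3 further chondroitin and dermatan enzymes and 5 partners in keratan sulfate and HNK-1 synthesis, 0 passed in edgeR. Of these 51 genes, 8 (15.7%) had an unadjusted p under 0.05, no larger a share than the 18.1% of all genes. The nearest was Slc35b2, the Golgi transporter of the sulfate donor, with 18.8 and 18.7 CPM in ATO and 23.7 and 26.4 CPM in control (log2 -0.42 ± 0.12, adjusted p = 0.0658). The linkage enzyme gene B3gat3, at 53.9 FPKM the most abundant of its list, was at -0.13 ± 0.08, and the lysosomal sulfatase gene Ids, at 112 FPKM, at -0.03 ± 0.08.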

How the data were processed

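RNA was measured in 2 ATO and 2 control libraries of mouse hippocampus. The authors deposited 1 table with raw counts per gene and FPKM values per library and, per the file headers, their own log2 fold change, p-value and adjusted p-value. The submitters' processing notes name HISAT2 (2.0.1), HTSeq (0.6.1) and limma (3.47.15), besides cutadapt (1.9.1) and FastQC (0.10.1), and the build GRCm38. The role and settings of each tool, and the strand, are not stated there.

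The test was edgeR's quasi-likelihood test (version 4.0.16) of ATO over control, with no covariate. TMM factors lay between 0.994 and 1.01, filterByExpr took out 0 genes, and p-values had Benjamini-Hochberg adjustment over all 15713 genes. Rose and fell mean an adjusted p under 0.05. The SE is the log2 fold change divided by the square root of F. The pipeline was tested on simulated data. The deposited FPKM served only to set genes side by side; the length behind them is not given. Gene positions come from GENCODE vM21, promoter windows from RefSeq. Alternatives were DESeq2 1.42.0, limma-voom (limma 3.58.1), other scalings and filters, a replicate block and leaving out each library.

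Values in every library were given for genes with an unadjusted p under 0.05 and for the most abundant gene of each role; others named were chosen for their role. Members, lists and markers were chosen with earlier results of these data known. The common dispersion was 0.00513, and 3 counts correspond to between 0.172 and 0.204 CPM.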

Additional observations from a re-analysis of the deposited data

How the results depend on the processing

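The 3 genes that passed did so under DESeq2's Wald test, library size only, RLE factors, no filter, a mean of at least 5 CPM and limma-voom, and 4 passed with the replicate number as a block (Hs2st1 in addition). Leaving out each library gave 1 to 3 genes that passed, 1 to 2 that rose and 0 to 2 that fell; Sulf1 was among them each time, Sdc4 was lost without ATO replicate 1, ATO replicate 2 or control replicate 2, and Ndst3 without ATO replicate 1 or either control, where an arm with 1 library is assumed to vary like the other. Over all genes 586 passed, against 316 in DESeq2, 1366 with the replicate block and 222 to 611 with a library left out. The labels number the replicates and do not state whether same-numbered libraries were paired. Over all genes, same-numbered libraries deviated together with a correlation of 0.0877. That value does not settle whether some genes shared a deviation. The leptomeninges and fibroblasts sum, for example, was higher in replicate 1 than in replicate 2 in ATO (714.37 and 390.88 CPM) and in control (468.99 and 319.31 CPM). Of 197 values of 18 named genes under 11 settings, 186 kept their direction and side of the threshold, 2 gained and 6 lost the call, and 3 changed sign: Sulf2 (-0.214 to 0.0591 with a library left out) and Gpc1 (-0.0425 to 0.107), neither of which passed; the causes were not tested. No value could be had for Sdc1 at a mean of at least 5 CPM. Below 1 FPKM (8 of the 49 genes), counting limits what can be seen.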
